A study of Mus musculus with 3 samples.

Results

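In the lymph node library of a mouse regulatory T cell (Treg) series, 83 of 9305 kept cells carried at least 1 unique molecular identifier (UMI, the tag that marks 1 captured RNA molecule) of Areg, which encodes amphiregulin. These 83 cells are described here, out of 10414 kept cells in the lymph node, epidermal and dermal libraries together. They were chosen by the presence of Areg UMIs among lymph node barcodes that held 500 UMIs and 300 genes or more, no more than 10% mitochondrial UMIs, and 2 or more UMIs of the T cell genes Cd3d, Cd3e, Cd3g and Cd4. Cells just inside this threshold, with 1 Areg UMI, numbered 59, and cells just outside it, with 0, numbered 9222. The level of Areg is therefore the reason for membership and not a finding.

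All cells came from adult mice of the strain FOXP3-EGFP (C.Cg-Foxp3tm2Tch/J), in which a green fluorescent protein reports expression of Foxp3, and were sorted as GFP+ CD4+ CD3+ CD45+. Lymph node tissue was mashed and run with the 10x 3′ v2 kit, whereas back epidermis was freed with thermolysin and dermis was also digested with collagenase, both run with the v3 kit. There was 1 library per tissue, cells of 1 library are not replicates, and no p-value is given. The intervals below are exact 95% intervals that cover counting error only. How many mice went into each library was not stated in the labels.

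Amphiregulin is a member of the epidermal growth factor family. It is made as a membrane-bound precursor, is released mainly by the protease ADAM17 and acts through the epidermal growth factor receptor. Tregs of injured or inflamed barrier tissues are known for making it, in connection with tissue repair and with signals such as interleukin-33. Tregs that pass through lymph nodes in a resting state carry the homing receptor Ccr7, and effector Tregs, which are more frequent in tissues such as skin, lose it and carry genes such as Ctla4, Klrg1 and Il1rl1.

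Areg (ENSMUSG00000029378) lies on the plus strand of chromosome 5 from 91139599 to 91148432 in mm10. Its promoter is shown because the cells were chosen by transcription of this gene and because it holds the 8-base cAMP response element, a sequence known to be bound by factors of the CREB and ATF families. The 300 bases span chr5:91139349-91139648 of GRCm38.p6, plus strand, from RefSeq, with 250 bases before the start of the gene and 50 after it, and the capitals mark the element, which begins 61 bases before the start.
Areg: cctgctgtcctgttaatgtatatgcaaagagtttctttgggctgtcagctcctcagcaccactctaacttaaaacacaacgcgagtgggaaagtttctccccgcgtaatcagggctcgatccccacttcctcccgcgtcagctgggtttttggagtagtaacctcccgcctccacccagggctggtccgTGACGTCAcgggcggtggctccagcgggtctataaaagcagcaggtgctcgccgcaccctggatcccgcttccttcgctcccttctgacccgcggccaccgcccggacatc
The motif TGACGTCA, which reads the same on both strands, was present in 507 of 27025 mouse promoters of this length (1.88%). It was present in 0 of the 16 promoters that could be matched to 20 genes with high ratios between cells with and without Areg. These were the 10 highest ranked above and the 10 below the level of 50 CPM, UMIs per 1000000, used further on. Those below it needed UMIs in at least 8 cells with Areg, which left out Il10. With 1.88% of all promoters holding the motif, 16 promoters are too few to show a difference. The motif TGANTCA, the AP-1 element, which also reads the same on both strands and cannot coincide with the first motif, was in 7.93% of all promoters, in 1 of those 16 and not in the window shown for Areg. A match is a description of letters and not of a bound site.

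Areg UMIs were few in lymph node. The 83 cells held 142 of them, which made 4.34 CPM (interval 3.66 to 5.12) over all kept lymph node cells, against 529 CPM in epidermis and 762 CPM in dermis. The share of cells with an Areg UMI was 0.892% in lymph node (interval 0.711 to 1.10), 35.8% in epidermis and 55.6% in dermis. With each cell thinned to 1500 UMIs, the shares were 0.488% (45 of 9216), 19.8% (52 of 262) and 37.8% (308 of 815), so lymph node stayed far below either skin layer at equal depth. Kit and dissociation differed between lymph node and skin, and their part in these differences was not tested.

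Within lymph node the Areg UMIs were unevenly spread. A single UMI was found in 59 cells, 2 in 13 cells, 3 in 5 cells and 4 in 2 cells, and 4 further cells held 5, 6, 9 and 14. The 24 cells with 2 or more UMIs accounted for 83 of the 142, or 58.5%. Background from free RNA could not be set against a large population that should lack Areg, because the library was sorted. Of the 114 lymph node barcodes outside the filter, most of them short of T cell UMIs, 0 had an Areg UMI, which allows a share of up to 2.63%.

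**Figure D1:**
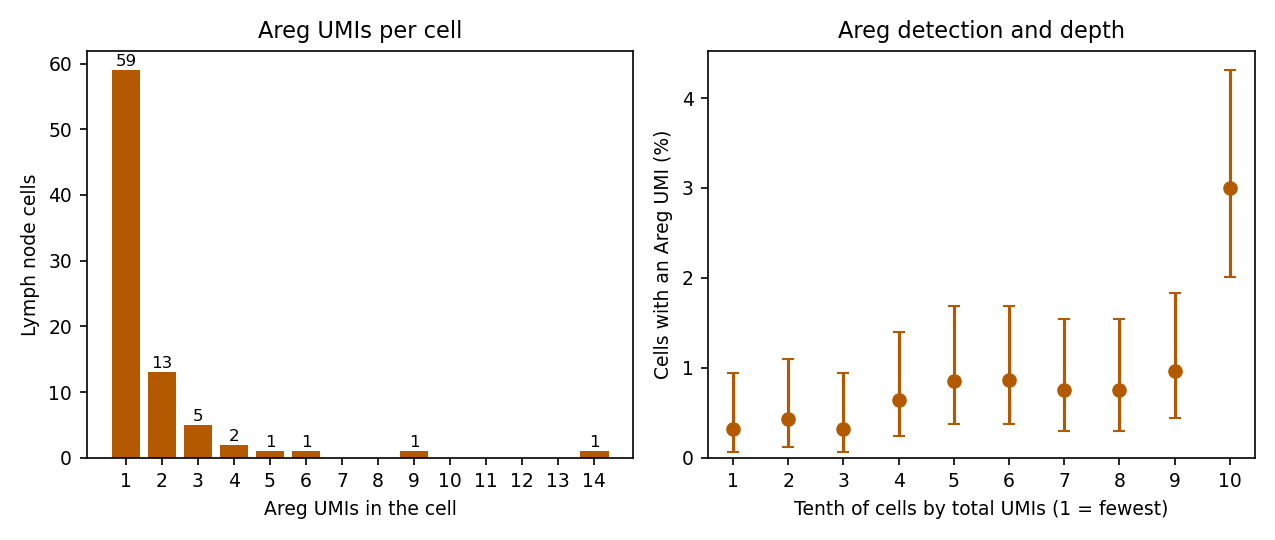
Left, the number of lymph node cells (y axis) that held each number of Areg UMIs (x axis), cells with 0 left out. Right, the share of cells with an Areg UMI in percent, with exact 95% intervals, in 10 bins of lymph node cells ordered by total UMIs; 28 of 932 cells had Areg in the deepest bin and 3 of 930 in the shallowest.

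Cells with Areg were deeper than the rest. Their median was 3861 UMIs and 1599 genes, against 3028 UMIs and 1156 genes in cells without Areg. Cells with 2 or more Areg UMIs had a median of 4559 UMIs and cells with 1 a median of 3524. The deepest of 10 bins by depth held 28 of the 83 cells. The functional lists are therefore also set, in the plot of list ratios, against cells without Areg weighted to the same depth bins, called depth-standardised below. Mitochondrial UMIs had a median of 2.20% in cells with Areg and 2.27% in cells without, and ribosomal protein genes took 28.6% of UMIs in cells with Areg against 36.5% in cells without.

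The label of the cells as Tregs rested on the sort and was checked against Treg genes. Foxp3, which encodes the defining transcription factor, was detected in 5 of 83 cells with Areg (6.02%, interval 1.98 to 13.5) and in 663 of 9222 without (7.19%). Its level was 12.0 CPM in cells with Areg and 21.9 CPM in cells without, a ratio of 0.55 with an interval of 0.18 to 1.28, and the ratio was 1.24 when the deepest bin was left out. Detection of Foxp3 was thus sparse in both classes, and the counts are too few to separate them. The same filter found Foxp3 in 43.2% of epidermal and 48.6% of dermal cells, which were deeper and run with another kit. Ikzf2, which encodes the Treg-linked factor Helios, was found in 81 of the 83 cells and in 6400 of the 9222 without, which were shallower. Its level was 1272 CPM in cells with Areg and 741 CPM in cells without. Il2ra, the high-affinity chain of the interleukin-2 receptor, was at 237 CPM in cells with Areg and 213 CPM in cells without (ratio 1.11, interval 0.90 to 1.36), and its ratio was 0.98 when mitochondrial and ribosomal protein genes were taken out of the totals. The Treg core list of 15 genes summed to 4633 CPM in cells with Areg and 3451 CPM in cells without (ratio 1.34). Ikzf2 and the actin-capping gene Capg accounted for most of those UMIs (531 and 464 of 1934). Over all 2353 genes with at least 50 CPM in kept lymph node cells, 2.46% were at least 2-fold higher and 0.467% at least 2-fold lower. Of the 14 list members at that level, 1 was at least 2-fold higher (Tnfrsf1b) and 1 at least 2-fold lower (Socs2). Socs2, a feedback inhibitor of cytokine signalling, had a ratio of 0.44 (interval 0.26 to 0.70). Gpr83, a receptor gene of lymphoid Tregs, was also lower, at 59.9 CPM in cells with Areg and 107 CPM in cells without (ratio 0.56, interval 0.36 to 0.83), while Ikzf4 and Izumo1r had ratios of 0.86 and 0.95.

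Across the 2353 genes with at least 50 CPM over all kept lymph node cells, 58 were at least 2-fold higher in cells with Areg (2.46%) and 11 at least 2-fold lower (0.467%). Against depth-standardised cells these were 50 (2.12%) and 10 (0.425%). The median log2 ratio of all 2353 genes was 0.13, so a ratio slightly above 1 was the common case and list medians are read against it. The split depended on scaling. With mitochondrial and ribosomal protein genes out of the totals it was 43 higher and 25 lower, and with median-of-ratios scaling 47 higher and 18 lower.

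Genes of effector Tregs were higher in cells with Areg. The 35 genes of the effector lists summed to 11543 CPM in cells with Areg (4818 UMIs) and 3613 CPM in cells without, a ratio of 3.19 (interval 3.10 to 3.29), or 2.67 depth-standardised. Of the 12 effector genes that reached 50 CPM, 11 were at least 2-fold higher and 0 lower, against 2.46% and 0.467% of all genes tested. Their median log2 ratio was 1.58 against 0.13 over all genes tested. The other 23, under that level, summed to a ratio of 3.98 (3.66 to 4.33). The sum was 14662 CPM in cells with 2 or more Areg UMIs and 9719 CPM in cells with 1, against 15244 CPM in all epidermal cells and 24091 CPM in all dermal cells. The list sum of cells with 2 or more Areg UMIs lay 4.06-fold above that of cells without. It was just below the sum of all epidermal cells, with and without Areg, across a difference of kit and dissociation. Epidermal cells with Areg summed to 18928 CPM and dermal cells with Areg to 25106 CPM, both above it. The nearness to all epidermal cells did not hold gene by gene. Lgals1, the member with most UMIs, was at 3292 CPM in lymph node cells with 2 or more Areg UMIs and 1878 CPM in epidermis. Tnfrsf4 was at 2143 and 1371 CPM in the same order. S100a4 went the other way, at 1273 and 2754 CPM, as did Ctla4, at 753 and 1127 CPM.

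Effector surface and secreted products made up most of that sum. Ctla4, the inhibitory receptor that competes with CD28 for its ligands, was found in 60 cells with Areg, at 577 CPM in cells with Areg and 161 CPM in cells without (ratio 3.59, interval 3.14 to 4.08). Its level was 753 CPM in cells with 2 or more Areg UMIs and 475 CPM in cells with 1. Both stayed below skin, at 1127 CPM in epidermis and 2262 CPM in dermis. The order of the lymph node classes followed the number of Areg UMIs, but median depth rose in the same order. That median was 3028 UMIs in cells without Areg, 3524 in cells with 1 Areg UMI and 4559 in cells with 2 or more. Ctla4 was not compared at equal depth between cells with 1 and with 2 or more Areg UMIs. The part of depth in this order was not tested. The calcium-binding protein genes S100a4 and S100a6 were 4.40-fold and 4.89-fold higher in cells with Areg (3.41 and 3.63 depth-standardised). S100a4 averaged 891 CPM in cells with Areg and 202 CPM in cells without, and 2754 CPM in epidermis and 4589 CPM in dermis. Tnfrsf4 (OX40) and Tnfrsf9 (4-1BB), costimulatory receptors of the tumour necrosis factor receptor family, were 2.95-fold and 3.02-fold higher. Icos, another costimulatory receptor, was 2.65-fold higher.

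Scarcer effector genes varied widely in their ratios, each on few UMIs. Il1rl1, which encodes the interleukin-33 receptor ST2, had 16 UMIs in 15 of the 83 cells, or 38.3 CPM in cells with Areg against 6.75 CPM in cells without (ratio 5.67, interval 3.19 to 9.43). Klrg1, an inhibitory lectin-like receptor of terminally differentiated effector cells, was at 101 CPM in cells with Areg and 19.7 CPM in cells without. Its ratio was 5.11, or 3.86 depth-standardised. Klrg1 was at 111 CPM in epidermis and 235 CPM in dermis, and Il1rl1 at 75.8 CPM in epidermis and 141 CPM in dermis. For Il1rl1 both layers lay above the interval of the cells with Areg (21.9 to 62.2 CPM). For Klrg1 dermis lay above that interval (72.5 to 136 CPM) and epidermis inside it. Il10 (ENSMUSG00000016529), the gene of a suppressive cytokine, had 25 UMIs in 6 cells, which held 8, 7, 4, 3, 2 and 1 of them. It reached 59.9 CPM in cells with Areg against 1.98 CPM in cells without (ratio 30.2, interval 18.2 to 48.6), and 63.5 CPM in epidermis and 109 CPM in dermis. No Il10 UMI was seen in the other cells with Areg, so the level rested on those 6. Lgals3, a galectin gene, had a ratio of 7.36, Tigit, an inhibitory receptor gene, 5.03, Fgl2, the gene of a secreted suppressive fibrinogen-like protein, 4.81, and Gzmb, the gene of granzyme B, 4.77. Other scarce members had smaller ratios. Entpd1, the gene of the ATP-degrading enzyme CD39, had 1.90 (interval 0.76 to 3.96), Ebi3, a chain of interleukin-35, 2.37, the inhibitory receptor genes Pdcd1 and Lag3 2.48 and 2.61, and Id2, an inhibitor of E proteins, 2.70.

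Tff1 and Penk, genes of a trefoil peptide and of proenkephalin, were each found in few of the cells with Areg. Tff1 had 2 UMIs in 1 cell with Areg, against 138 CPM in epidermis and 41.3 CPM in dermis. Penk had 27 UMIs in 4 cells with Areg, or 64.7 CPM in cells with Areg and 22.8 CPM in cells without, beside 37.9 CPM in epidermis and 4.85 CPM in dermis. Its ratio of 2.83 was 1.50 without the cells above the 95th percentile of depth.

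Transcription factors of effector Tregs were higher as well. The 12 genes of that list summed to 1090 CPM in cells with Areg and 383 CPM in cells without (ratio 2.85, interval 2.59 to 3.13). Against 2.46% of all genes tested, all 3 members at 50 CPM or more were at least 2-fold higher. These were Gata3 (192 CPM in cells with Areg, 91.6 CPM in cells without), which supports ST2-expressing Tregs, Batf (252 and 96.1 CPM in the same order) and Maf (249 and 79.9 CPM), the last 2 being factors of effector differentiation. Below that level Irf4, needed for effector Tregs, had a ratio of 5.98 and Prdm1, the gene of the effector factor Blimp-1, a ratio of 5.58. Rora, linked to skin Tregs, had a ratio of 2.78 (1.61 with cells thinned to 1500 UMIs), and Nfil3, a basic leucine zipper factor, 2.97. Nfil3 had 11 UMIs in 9 cells with Areg. Thinned, it was found in 1 of 83 cells with Areg and 117 of 9133 without.

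**Figure D2:**
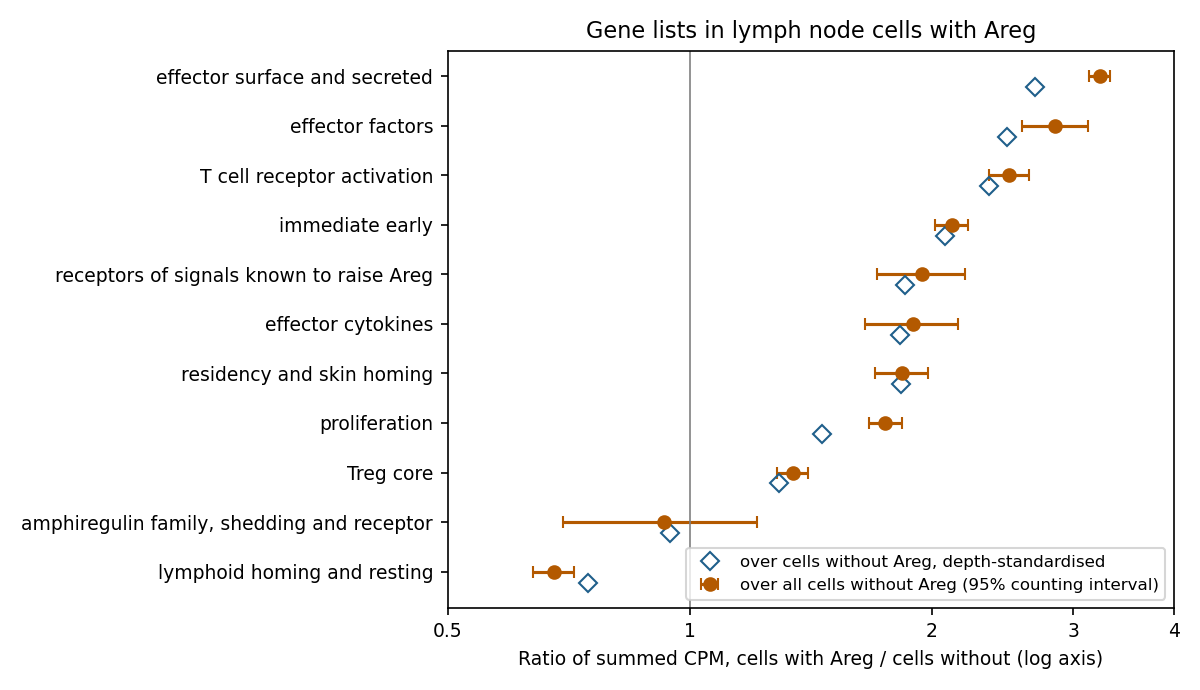
Ratio of summed CPM in cells with Areg over cells without, on a log axis, for 11 gene lists. Filled circles with bars are ratios over all cells without Areg with exact 95% counting intervals, and open diamonds are ratios over depth-standardised cells; the effector lists lie at 3.24 and 2.85, and the lymphoid homing and resting list at 0.68 lies below 1.

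Residency and skin-homing genes were higher by less, and unevenly from gene to gene. The 24 genes summed to 1670 CPM in cells with Areg and 910 CPM in cells without (ratio 1.83, interval 1.70 to 1.98; 1.83 depth-standardised), beside 3677 CPM in epidermis and 5149 CPM in dermis. Of the 4 members that reached 50 CPM, 2 were at least 2-fold higher and 0 lower, against 2.46% and 0.467% of all genes tested. Itgae, the CD103 chain of the integrin that binds E-cadherin on epithelium, was found in 31 cells, at 177 CPM in cells with Areg and 55.3 CPM in cells without (ratio 3.21, interval 2.51 to 4.05). Its level was 175 CPM in cells with 2 or more Areg UMIs and 178 CPM in cells with 1, nearly equal. Cd69, which opposes exit from tissue and is also an early activation gene, was at 362 CPM in cells with Areg and 88.5 CPM in cells without, a ratio of 4.09. Rgs1, a regulator of chemokine receptor signalling, had a ratio of 1.00 and is the largest member, and the list ratio without it was 2.44. In cells with Areg, Rgs1 held 23.1% of the list's UMIs and Cd69 21.7%. The list ratio without Cd69 was not taken. Vps37b, an endosomal sorting gene of the list, had a ratio of 0.57.

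Among the 20 residency genes under 50 CPM the summed ratio was 2.16 (1.92 to 2.42). The lysophospholipid receptor gene Gpr55 had a ratio of 5.45 and Crem, a factor of the cAMP response, 3.88. Chemokine receptors of skin homing had few UMIs, and Ccr8, thinned, was found in 0 of 83 cells with Areg and 23 of 9133 without. Ccr8 had 5 UMIs in 4 cells with Areg (ratio 4.71), Cxcr6 had 8 UMIs in 4 cells, 5 of them in 1 cell (ratio 5.07, and 2.39 without cycling cells), Ccr4 had 16 UMIs in 11 cells (ratio 2.68) and Ccr10 had 16 UMIs in 8 cells (ratio 3.38). Itgb8, an integrin chain that activates transforming growth factor beta, had a ratio of 2.68, which was 1.46 within the deepest of the 10 depth bins. Other skin-type genes had intervals that included 1. Rgs2, another regulator of G protein signalling, had a ratio of 0.87, on 10 UMIs in 10 cells with Areg, beside 680 CPM in dermis. The protease gene Furin had 1.10, on 14.4 CPM beside 151 CPM in epidermis, and Runx3, a residency factor of T cells, had 1.05, on 28.7 CPM beside 94.0 CPM in dermis. Itga1 and Zfp683, genes of the integrin chain CD49a and the residency factor Hobit, had 0 UMIs in cells with Areg.

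Genes of lymphoid homing and the resting state were lower in sum, though not in every member. Their 20 genes summed to 2722 CPM in cells with Areg and 4018 CPM in cells without, a ratio of 0.68 (interval 0.64 to 0.72), or 0.75 depth-standardised. Of the 17 at 50 CPM or more, 3 were at least 2-fold lower and 0 higher, against 0.467% and 2.46% of all genes tested. Their median log2 ratio was -0.60 against 0.13 over all genes tested. Ccr7, the receptor that guides T cells into and through lymph nodes, was at 83.9 CPM in cells with Areg and 226 CPM in cells without (ratio 0.37, interval 0.26 to 0.52; 0.56 thinned). Its level was 51.9 CPM in cells with 2 or more Areg UMIs and 103 CPM in cells with 1. Ccr7 was still detected in 24 of the 83 cells. Igfbp4, an insulin-like growth factor binding protein gene of naive T cells, was at 16.8 CPM in cells with Areg against 101 CPM in cells without, and Bcl2, which protects resting lymphocytes from death, at 204 CPM in cells with Areg against 473 CPM in cells without. Klf2, a factor of quiescence and recirculation, had a ratio of 0.65, and Lef1, a factor of naive T cells, 0.59. Il7r, the interleukin-7 receptor chain, went the other way, at 170 CPM in cells with Areg and 102 CPM in cells without (ratio 1.67, interval 1.30 to 2.12), and Ets1, a lymphoid transcription factor and the second largest member, had a ratio of 1.06.

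Outside the lists, 6 of the 10 lowest genes were Ly6c1, a surface antigen of T cell subsets (ratio 0.28), Pik3ip1, an inhibitor of phosphoinositide 3-kinase (0.29), Pdk1 (0.38), Ms4a4c (0.39), Pdlim1 (0.44) and Capn3 (0.44). Each of these was also below the cells without Areg at matched depth, with depth-standardised ratios up to 0.475.

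**Figure D3:**
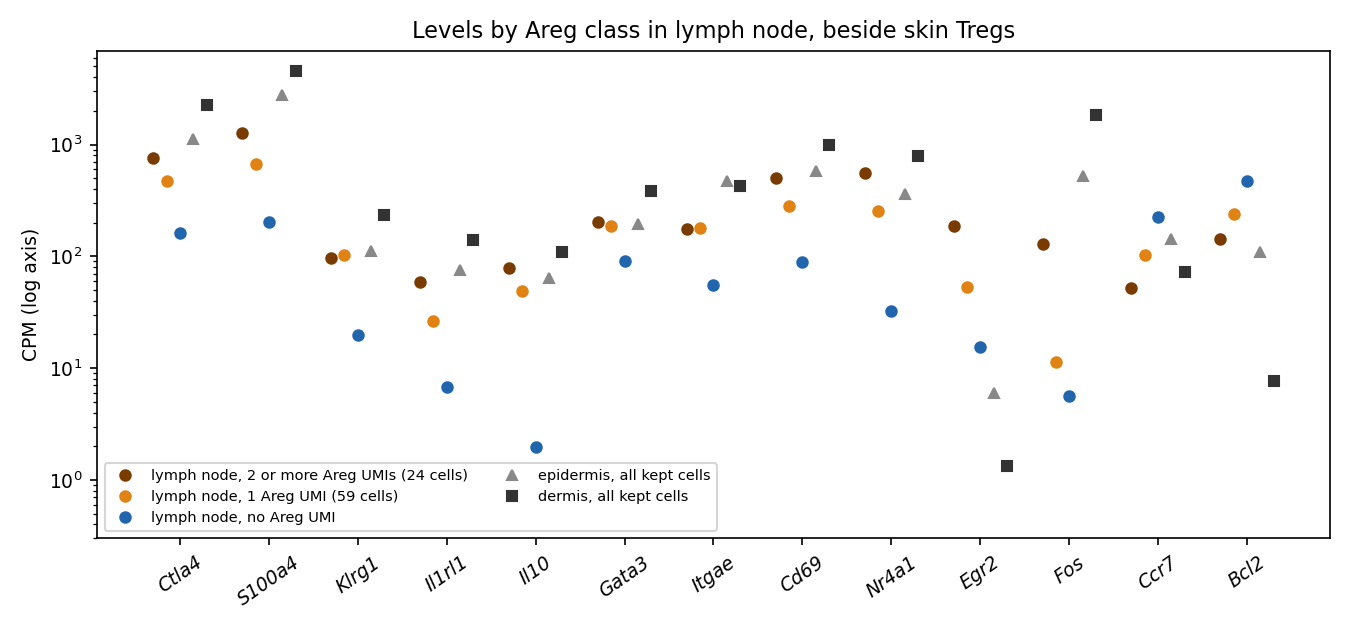
Level in CPM on a log axis of 13 genes in lymph node cells with 2 or more Areg UMIs, with 1 and with none (circles), and in all kept epidermal (triangles) and dermal cells (squares). In lymph node, Ccr7 and Bcl2 are lower in both classes with Areg than in cells without, and the other 11 are higher; Egr2 is at most 5.94 CPM in skin.

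A second group that stood high was that of genes induced by T cell receptor signals. The 18 genes of that list summed to 2971 CPM in cells with Areg and 1191 CPM in cells without, a ratio of 2.49 (interval 2.35 to 2.64), with 3701 CPM in cells with 2 or more Areg UMIs and 2544 CPM in cells with 1. Of its 9 members at 50 CPM or more, 5 were at least 2-fold higher and 0 lower, against 2.46% and 0.467% of all genes tested. The 9 under 50 CPM had a summed ratio of 6.21 (5.58 to 6.89). Nr4a1 (ENSMUSG00000023034), an orphan nuclear receptor gene switched on soon after receptor engagement, was found in 37 cells, at 364 CPM in cells with Areg and 32.6 CPM in cells without (ratio 11.2, interval 9.36 to 13.3). It reached 552 CPM in cells with 2 or more Areg UMIs, against 360 CPM in epidermis and 783 CPM in dermis. Nr4a3, of the same family, had a ratio of 9.73 on 19 UMIs in 14 cells with Areg, and 7.78 depth-standardised. Thinned, it was found in 1 of 83 cells with Areg and 56 of 9133 without. Nfkbid, a nuclear inhibitor of NF-kB, had a ratio of 7.74.

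Egr2 and Egr1, zinc finger factors induced by receptor signals, differed in place as well as in class. Egr2 was at 103 CPM in cells with Areg and 15.5 CPM in cells without, but at 5.94 CPM in epidermis and 1.32 CPM in dermis. Egr1 was at 149 CPM in cells with Areg and 24.4 CPM in cells without, against 30.2 CPM in epidermis and 34.2 CPM in dermis. For this pair the lymph node cells with Areg were thus the higher ones, and skin the lower, across a difference of kit and dissociation.

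The immediate early list of 22 genes had a ratio of 2.12 (4123 CPM in cells with Areg, 1947 CPM in cells without), beside 8952 CPM in epidermis and 19666 CPM in dermis. Of its 8 members at 50 CPM or more, 4 were at least 2-fold higher and 0 lower, against 2.46% and 0.467% of all genes tested. Junb, an AP-1 subunit, had a ratio of 3.23, Zfp36, an mRNA decay factor, 3.55 and Dusp1, a phosphatase of MAP kinases, 2.82. Jund, another AP-1 subunit and the second largest member, had 1.41, the antiproliferative gene Btg2 1.20, Klf6, a zinc finger factor, 0.89, and Jun 0.78 on 8 UMIs. Fos, another AP-1 subunit, was at 55.1 CPM in cells with Areg (9 cells) and 5.67 CPM in cells without, far below 527 CPM in epidermis and 1826 CPM in dermis. Skin was digested and lymph node was mashed, and kits differed too, so tissue, dissociation and kit cannot be told apart here. Atf3, Hspa1a and Hspa1b, stress genes with UMIs in skin, had 0 UMIs in the cells with Areg and 0, 6 and 11 UMIs in all cells without, too few to compare.

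Genes of the amphiregulin pathway itself gave a ratio whose interval included 1. The 15 genes of the family, its shedding machinery and its receptors summed to 129 CPM in cells with Areg and 139 CPM in cells without, a ratio of 0.93 with an interval of 0.70 to 1.21. The related ligand genes Ereg, Epgn and Tgfa and the receptor genes Egfr and Erbb4 had no UMI in either class. Adam17, the main sheddase, had 9 UMIs and a ratio of 1.25 (interval 0.57 to 2.39), and Adam10, a second sheddase, a ratio of 1.57. Frmd8, which stabilises the ADAM17 complex at the cell surface, held 40.7% of the list's UMIs and was lower, at 52.7 CPM in cells with Areg and 83.3 CPM in cells without (ratio 0.63, interval 0.40 to 0.96).

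Receptors for signals known to raise Areg were higher. The 10 genes summed to 613 CPM in cells with Areg and 315 CPM in cells without (ratio 1.95, interval 1.71 to 2.20). Ptger4, a prostaglandin E2 receptor gene, was at 189 CPM in cells with Areg and 69.9 CPM in cells without (ratio 2.71). It was the only 1 of the 3 members at 50 CPM or more to reach 2-fold, against 2.46% of all genes tested. Adora2a, an adenosine receptor gene, had a ratio of 2.14, Crlf2, a chain of the receptor for thymic stromal lymphopoietin, 1.77 and Il18r1, a chain of the interleukin-18 receptor, 1.18 on 12 UMIs.

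Cytokine genes beyond Il10 gave a mixed picture. The 14 genes of that list had a ratio of 1.89 and Tgfb1, the gene of transforming growth factor beta 1, held 71.3% of its UMIs in cells with Areg. Tnf, the gene of tumour necrosis factor, was at 182 CPM in cells with 2 or more Areg UMIs, 22.8 CPM in cells with 1 and 16.9 CPM in cells without. The first value rested on 28 UMIs in 10 of 24 cells, 10 of them in 1 cell, and the second on 6 UMIs in 6 of 59 cells. Il2, the growth factor gene that Tregs normally keep silent, was at 62.3 CPM in cells with Areg and 44.2 CPM in cells without (ratio 1.41, interval 0.92 to 2.07), and at 5.03 CPM in epidermis and 1.10 CPM in dermis. It was found in 21 of 83 cells with Areg and 1291 of 9222 without, in each class more cells than had Foxp3. The type 2 cytokine genes Il4, Il5 and Il13 had 1, 0 and 0 UMIs in cells with Areg and 6, 2 and 0 in all cells without, too few to compare.

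The genes of cell division were higher too, and 1 cell held 17.5% of their UMIs. The 20 genes summed to 4202 CPM in cells with Areg and 2400 CPM in cells without, a ratio of 1.75 that was 1.46 depth-standardised. Stmn1, a regulator of microtubules, had a ratio of 5.05, which was 2.77 depth-standardised. Without cycling cells 77 cells with Areg remained, and the effector ratio was 2.95.

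At equal depth the effector genes were spread over many of the 83 cells rather than held by a few. With each cell thinned to 1500 UMIs, 45 of 83 cells with Areg had at least 13 effector UMIs, the lowest whole number reached by no more than 10% of cells without Areg (54.2%, interval 42.9 to 65.2), against 818 of 9133 cells without (8.96%). The share was 17 of 24 among cells with 2 or more Areg UMIs and 28 of 59 among cells with 1. The median was 13 effector UMIs in cells with Areg and 3 in cells without, and the ranges overlapped, from 0 to 58 in cells with Areg and from 0 to 60 in cells without. A limit on a count is a point on a range and not a type. At 13 UMIs stood 4 cells with Areg and just below it 3.

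For genes of receptor signalling, 34 of 83 cells with Areg had at least 5 UMIs (41.0%), against 595 of 9133 cells without (6.51%). At 5 UMIs stood 10 cells with Areg and just below it 8. Both limits were reached by 18 of the 83 cells, the effector limit alone by 27, the receptor limit alone by 16 and neither by 22. In cells without Areg these were 154, 664, 441 and 7874 of 9133. Of the 24 cells with 2 or more Areg UMIs, 22 reached at least 1 of the limits, and of the 59 cells with 1 UMI, 39 did. The 83 cells thus lay on both sides of each limit, and limits on small counts do not show whether they form separate groups. Cells with a single Areg UMI, 59 of the 83, made up 20 of the 22 that reached neither limit.

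**Figure D4:**
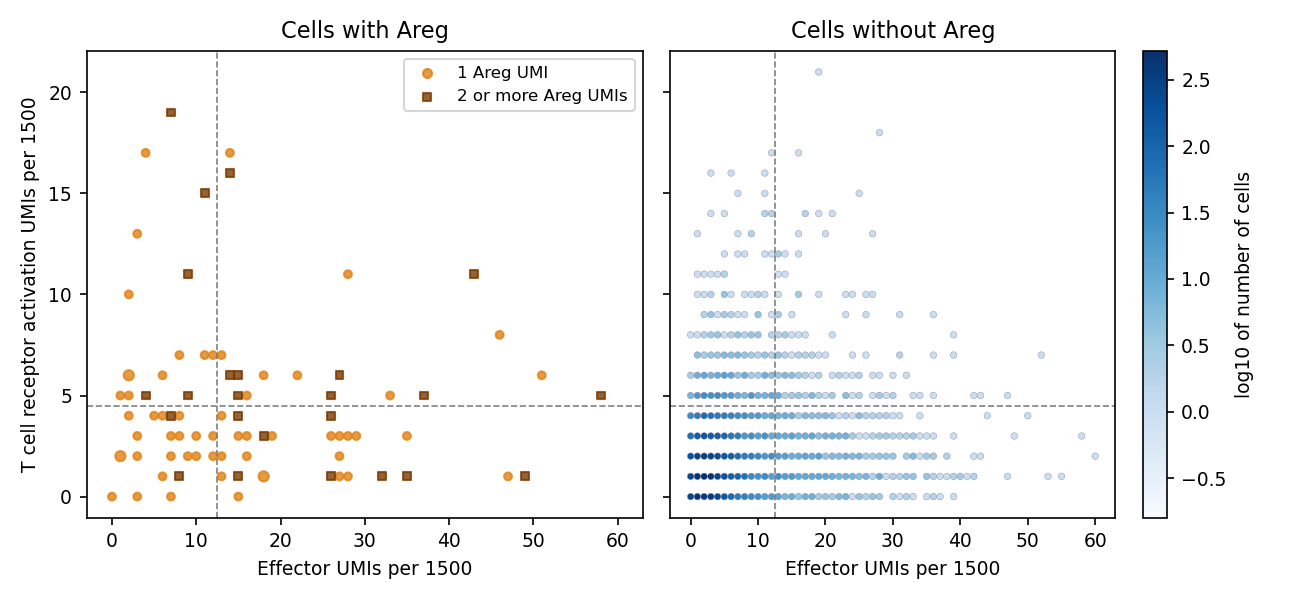
UMIs of T cell receptor activation genes (y axis) against UMIs of effector genes (x axis) in each lymph node cell thinned to 1500 UMIs. The left panel shows the 83 cells with Areg, with the 24 that held 2 or more Areg UMIs as squares and larger marks for several cells at 1 place, and the right panel the 9133 cells without, coloured by the log10 number of cells; dashed lines mark 13 effector and 5 receptor UMIs, and 22 cells with Areg lie below both.

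Residency genes reached at least 4 thinned UMIs in 26 of 83 cells with Areg (31.3%) and in 891 of 9133 without (9.76%), with a median of 2 in cells with Areg and 1 in cells without. The limit of 12 resting UMIs was reached by 0 of 83 cells with Areg, which allows a share of up to 3.61%, and by 705 of 9133 without (7.72%). The highest cell with Areg had 11, and most cells without Areg lay below 12 too. The median was 4 resting UMIs in cells with Areg (quartiles 2 and 5.5) and 6 in cells without (quartiles 4 and 8), so the ranges overlapped. Of 14 scarce skin-type genes chosen with these values known, among them Il10, Il1rl1, Klrg1, Ccr8, Cxcr6 and Itgae, at least 5 were detected in 10 of 83 cells with Areg (12.0%) and in 84 of 9222 without (0.911%), without thinning. None of the 14 was detected in 25 of 83 cells with Areg (30.1%), against 7051 of 9222 without (76.5%). The choice of genes and the greater depth of cells with Areg can each raise detection there. These counts therefore describe the cells and are not a test.

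The cells richest in Areg were not alike. The cell with 14 Areg UMIs had 5389 UMIs in all, of which 100 were of effector genes and 35 of receptor signalling genes, and it held 14 UMIs of Ctla4 and 1 each of Il1rl1 and Ccr7. The cell with 9 Areg UMIs had 37 effector UMIs of 3444, and the cell with 6 had 28 of 4196. Il10 was present in the cell with 5 Areg UMIs, which was deeper at 10738 UMIs and held 4 of Il10 and 186 of effector genes. Foxp3 had no UMI in any of these 4 cells.

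Single-gene ratios varied with depth. Within the deepest of 10 bins (28 cells with Areg, 904 without) the effector ratio was 2.35, the receptor signalling ratio 2.08, the residency ratio 1.53 and the resting ratio 0.83. In that bin Klrg1 had a ratio of 1.94, Ctla4 2.07, Itgae 1.98, Rora 1.83 and S100a4 2.71. Within the other 9 bins Klrg1 had a ratio of 9.27. The direction was the same within the deep bin for these lists and genes, and each ratio lay nearer to 1 than over all cells. The part of depth in the ratios over all cells was not tested.

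Cells that carried a different scarce transcript gave effector and resting ratios nearer to 1. The 59 kept lymph node cells with a UMI of Cd79a, a B cell receptor component, had an effector ratio of 1.02 and a resting ratio of 0.92. The 137 cells with Lyz2, lysozyme of myeloid cells, had 1.11 and 0.94, and the 5 cells with Mgp, a matrix protein gene of stromal cells, had 1.18 and 0.79. For receptor signalling genes the ratios were 0.98 with Cd79a, 0.96 with Lyz2 and 1.94 with Mgp, the last on 36 UMIs.

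Markers of other cell types differed between the classes for some lists, and their part in the results was not tested. Of the 7 B cell genes in the table only Cd79b had UMIs in cells with Areg, for a list sum of 31.1 CPM in cells with Areg and 32.4 CPM in cells without, and Cd79a was at 0. Myeloid and dendritic markers summed to 664 CPM in cells with Areg and 350 CPM in cells without, on 4 of 12 genes, of which Cd74 and Cst3 held 74.7% and 23.8%, while the class II genes H2-Aa, H2-Ab1 and H2-Eb1 were at 0. The list ratio was 1.90 (interval 1.68 to 2.14; 1.61 depth-standardised), and Cd74, the class II chaperone gene, was found in 53 of the 83 cells, at 496 CPM in cells with Areg and 172 CPM in cells without. Innate lymphoid markers summed to 501 CPM in cells with Areg and 234 CPM in cells without, on 7 of 12 genes, led by Gata3 and Il7r, which Tregs also express, for a ratio of 2.14 (interval 1.86 to 2.46; 2.14 depth-standardised). CD8 and natural killer cell markers summed to 175 CPM in cells with Areg and 76.0 CPM in cells without, on 3 of 10 genes, of which Nkg7 held 87.7%, with 43.8% of the list's UMIs in 1 cell, for a ratio of 2.30 (interval 1.80 to 2.91; 1.78 depth-standardised). Mast cell markers summed to 2.40 CPM in cells with Areg and 1.08 CPM in cells without, on 1 of 8 genes. Neutrophil markers were at 0 for all 6 genes in cells with Areg and at 1.77 CPM in cells without. Stromal and endothelial markers summed to 45.5 CPM in cells with Areg and 86.6 CPM in cells without, all of it from Pecam1 in cells with Areg.

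Skin Tregs were also split by Areg, for values side by side. The epidermal and dermal libraries shared 26 cell barcodes, and the lymph node library shared none with either. In epidermis (97 cells with Areg, 174 without) the ratio of cells with Areg over cells without was 1.47 for effector genes, 1.25 for residency genes, 1.87 for receptor signalling genes and 0.55 for resting genes. In dermis (466 with, 372 without) it was 1.12, 1.14, 1.36 and 1.12 for the same lists in the same order. The effector and residency ratios were thus smaller in skin than the 3.19 and 1.83 of lymph node, a difference that was not tested. Effector genes summed to 18928 CPM in epidermal cells with Areg and 12843 CPM in those without, and to 25106 CPM in dermal cells with Areg and 22387 CPM in those without. Without the shared barcodes the effector ratio was 1.55 in epidermis and 1.12 in dermis, and the epidermal levels of Il1rl1 and Egr2 were 89.2 CPM and 7.43 CPM.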

How the data were processed

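Each of the 3 libraries was deposited by the authors as raw counts, that is, UMI counts per gene and barcode with no normalization. The submitters' processing notes name Cell Ranger and mm10, and the file headers of both skin libraries give version 4.0.0. For lymph node its version was not given in the sources used here. From the counts, UMIs were summed over the cells of a class and scaled to CPM. The counts of both classes, split binomially, gave each ratio an exact 95% interval, and each share has an exact Clopper-Pearson interval, both of counting error only. A count of 0 was given a limit of 3 counts. A share of cells or a count per cell was also taken after thinning each cell to 1500 UMIs with a fixed seed, and 89 shallower lymph node cells without Areg were left out there.

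The depth of a kept cell had a median of 3034 UMIs in lymph node (32690130 UMIs in all), 7052 in epidermis (2188897) and 4813 in dermis (4532978). Of 9419, 360 and 1077 deposited barcodes, 9305, 271 and 838 were kept. Doublets were not called. Genes were called at 2-fold among the 2353 with at least 50 CPM over all kept lymph node cells, a level that does not use Areg. The summing was tested on simulated data.

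The cells, the 18 gene lists and the 75 named genes were chosen with earlier results of these data known. The named genes were a fixed set of 17, the 10 highest and 10 lowest ratios at 50 CPM or more, the 10 highest below it with UMIs in at least 8 cells with Areg, and up to 4 leading members per list, with keratin, haemoglobin, sex-linked, predicted, mitochondrial and ribosomal protein genes and receptor segments left out of the ranking. Other list members named in the text were picked after their values were seen. The value of 1 list member is not reported here. Alternatives were other filters, scalings, depth weights, cell subsets and cells chosen by other scarce genes. Tools were Python 3.11.15, numpy 2.4.6, pandas 2.3.3, scipy 1.17.1 and matplotlib 3.10.9. Positions are from GENCODE vM21.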

Additional observations from a re-analysis of the deposited data

Results flagged for a closer look

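For 3 lists the ratio of cells with Areg over cells without lay on opposite sides of 1 in lymph node and in a skin library. The difference was not tested, each tissue had 1 library, and kits and dissociation differed. For lymphoid homing and resting genes the ratio was 0.68 in lymph node and 1.12 in dermis (1.11 without the barcodes shared by the skin libraries). For effector cytokines it was 1.89 in lymph node and 0.899 in dermis (0.902 without them). For cell division genes it was 1.75 in lymph node, 0.783 in epidermis and 0.814 in dermis (0.739 in epidermis and 0.856 in dermis without them).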

How the results depend on the processing

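No paired analysis was possible because each tissue has 1 library. The share of lymph node cells with Areg was 0.892%, 0.258% at 2 or more Areg UMIs and 0.488% thinned to 1500 UMIs. The effector ratio of 3.19 was 4.06 with at least 2 Areg UMIs, 2.08 in cells with a Foxp3 UMI (5 with Areg, 663 without), 3.33 thinned, 2.67 depth-standardised over 10 bins and 2.54 over 50, 3.02 without cells above the 95th percentile of UMIs, 2.83 with totals free of mitochondrial and ribosomal protein genes, 2.92 with median-of-ratios scaling, 2.95 without cycling cells, 3.07 without the leading cell, 2.35 within the deepest bin and 3.29 within the others. The residency ratio of 1.83 was 2.03 with at least 2 Areg UMIs, 1.61 in cells with a Foxp3 UMI, 2.02 thinned, 2.13 without the deepest cells, 1.98 as the mean of each cell's CPM, 1.62 and 1.68 with the other totals and scaling, 2.44 without Rgs1, 1.53 within the deepest bin and 2.21 within the others. The resting ratio of 0.677 was 0.591 with at least 2 Areg UMIs, 0.749 in cells with a Foxp3 UMI, 0.748 and 0.761 depth-standardised, 0.599 and 0.620 with the other totals and scaling, and 0.828 within the deepest bin. The receptor signalling ratio of 2.49 was 3.11 with at least 2 Areg UMIs, 2.68 thinned, 2.34 over 50 depth bins, 2.77 without the deepest cells, 2.21 and 2.28 with the other totals and scaling, 2.70 without cycling cells, 2.08 within the deepest bin and 2.76 within the others. Cells chosen by Cd79a, Lyz2 and Mgp gave effector ratios of 1.02, 1.11 and 1.18, residency ratios of 0.917, 1.06 and 1.14, and resting ratios of 0.921, 0.938 and 0.785.

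The 58 higher and 11 lower genes were 165 and 84 at 20 CPM, 24 and 3 at 100 CPM, 1672 and 5356 with no filter, 100 and 78 with at least 2 Areg UMIs, and 257 and 410 in cells with a Foxp3 UMI, where 5 cells had Areg. Lower genes were also 72 thinned, 19 without the deepest cells, 19 as the mean of each cell's CPM, 25 and 18 with the other totals and scaling, 29 within the deepest bin and 36 within the others. The 46 remaining values kept their direction and moved by less than the counting interval, or, for counts, by less than 1.5 times. The cause of each shift was not tested. Depth bins of 50, the deepest bin and the others, all receptor signalling alternatives and the shared skin barcodes were chosen after seeing the data. With at least 2 Areg UMIs, single-gene ratios that moved by over 1.5 times were 0.23 for Ccr7, 7.67 for Ccr8, 10.3 for Cxcr6, 8.65 for Il1rl1, 5.03 for Itgb8 and 5.40 for Penk, and among cells with a Foxp3 UMI they were 5.46 for Ctla4, 2.15 for Il2ra, 7.17 for Itgb8 and 6.84 for Rora. Single-gene ratios with under 3 UMIs in cells with Areg were given no value. With 417404 UMIs in the 83 cells, 1 UMI is worth 2.40 CPM, which limits every gene under 50 CPM.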
